A study of Mus musculus with 6 samples.

Results

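The potassium channel genes are the 91 protein-coding genes on the mouse autosomes whose symbols consist of Kcn, further letters and a number, out of 20807 autosomal protein-coding genes in GENCODE vM21. They encode pore-forming channel subunits and the auxiliary subunits that join them, in 20 subfamilies named by the letters after Kcn. The choice used gene symbols alone and no measured value. A gene on chromosome X that matches the pattern was left out.

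CUT&RUN was used to map H3K4me3 and an HA-tagged ASH2L in a line of mouse embryonic stem (ES) cells, E14, kept in medium with serum and LIF. In this assay a nuclease is tethered by an antibody to its target in permeable cells, and the DNA that it releases is sequenced. The 6 samples fell into 3 groups of 2, namely parental E14 cells with anti-HA and HA-Ash2L E14 cells with either anti-HA or anti-H3K4me3, and doxycycline was given for 48 h to all of them. The HA-Ash2L line carries a doxycycline-inducible transgene, which the labels call a knock-in, was grown from selected colonies. The duplicates of each group had been merged before peaks were called, so that every value below belongs to a merged library, no spread between duplicates can be given and no difference was tested. Parental cells were not analysed here.

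Potassium channels let potassium leave the cell, which sets the resting membrane potential and ends action potentials, and most of them are known from neurons, heart and muscle, kidney or secretory cells. H3K4me3 is a histone mark of promoters that is placed by the MLL and SET1 methyltransferase complexes, of which ASH2L is a core subunit. In ES cells it is known to lie over most CpG-rich promoters, including those of genes that are expressed only in differentiated cells, where it is often joined by H3K27me3. H3K27me3 and RNA were not measured here, so that a promoter with an H3K4me3 peak is called marked and nothing is implied about expression.

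A gene was counted as marked when a peak overlapped the window from 1000 bp upstream to 100 bp downstream of any of its transcript start sites by at least 1 bp, and the peak with the most tags stands for the gene. Tags are the sequenced fragments that the authors' peak caller counted in the peak. The H3K4me3 list held 59927 peaks from 27328071 filtered tags, and the ASH2L list held 2464 peaks from 25677963. Peaks contained 45.7% of the H3K4me3 tags but only 0.398% of the ASH2L tags, so that tags were compared within a list only. The fewest tags in any peak were 19 for H3K4me3 and 17 for ASH2L. An unmarked gene is one without a called peak, which does not show that the modification is absent. This matters for the check of the cell type, since Klf4 (1239 tags), Tfcp2l1 (985), Zfp42 (570) and Esrrb (430) carried H3K4me3 peaks among 10 markers of ES cells, whereas Pou5f1, Nanog, Sox2, Tdgf1, Dppa5a and Fgf4 had no peak at a promoter. The nearest peak lay 3354 bp from a start site of Fgf4 and 25135 bp from that of Sox2. Of the markers of other cell types, 5 of 5 neuronal, 3 of 5 fibroblast and 1 of 5 cardiac muscle genes were marked. The defining ES cell genes are therefore partly missing from the list, and the part of this in the unmarked channel genes was not tested.

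The promoter sequences that the results turn on are shown from 250 bases before to 50 bases after a start site, 5′ to 3′, read from GRCm38.p6, the assembly also called mm10. CpG dinucleotides are in capitals, since CpG content is the sequence property compared below. The first sequence belongs to the gene with the most ASH2L tags.
Kcnh2, chr5:24329542-24329841, minus strand: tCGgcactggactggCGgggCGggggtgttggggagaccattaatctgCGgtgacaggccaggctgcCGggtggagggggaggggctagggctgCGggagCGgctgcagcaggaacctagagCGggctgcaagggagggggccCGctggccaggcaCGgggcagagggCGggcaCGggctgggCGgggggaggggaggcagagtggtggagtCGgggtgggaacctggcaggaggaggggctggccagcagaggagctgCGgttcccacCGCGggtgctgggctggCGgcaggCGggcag
The next pair belongs to unmarked genes, first the one with the highest and then the one with the lowest CpG content over the whole promoter window.
Kcnk5, chr14:20181760-20182059, minus strand: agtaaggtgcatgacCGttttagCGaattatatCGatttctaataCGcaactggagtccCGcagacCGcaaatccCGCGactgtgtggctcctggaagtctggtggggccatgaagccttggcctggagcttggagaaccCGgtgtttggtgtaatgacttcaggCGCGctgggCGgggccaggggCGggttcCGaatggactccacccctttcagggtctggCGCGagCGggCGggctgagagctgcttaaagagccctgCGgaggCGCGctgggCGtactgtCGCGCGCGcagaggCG
Kcnv2, chr19:27322338-27322637, plus strand: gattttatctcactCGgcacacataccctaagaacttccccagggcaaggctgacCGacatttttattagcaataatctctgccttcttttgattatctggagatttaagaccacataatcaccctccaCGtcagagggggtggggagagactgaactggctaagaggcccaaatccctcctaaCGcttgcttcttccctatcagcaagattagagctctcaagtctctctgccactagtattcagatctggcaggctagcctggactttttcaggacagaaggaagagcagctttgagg
The last pair comes from neighbouring genes that differ in H3K4me3. Kcnj10 was marked and Kcnj9 was not, and this pair was chosen after the values had been seen.
Kcnj10, chr1:172340960-172341259, plus strand: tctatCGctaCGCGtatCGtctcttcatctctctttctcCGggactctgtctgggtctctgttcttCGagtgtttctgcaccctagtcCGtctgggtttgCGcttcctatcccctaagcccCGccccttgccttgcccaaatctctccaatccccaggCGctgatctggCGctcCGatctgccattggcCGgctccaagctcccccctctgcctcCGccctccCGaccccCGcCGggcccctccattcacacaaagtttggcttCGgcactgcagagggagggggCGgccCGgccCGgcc
Kcnj9, chr1:172329233-172329532, minus strand: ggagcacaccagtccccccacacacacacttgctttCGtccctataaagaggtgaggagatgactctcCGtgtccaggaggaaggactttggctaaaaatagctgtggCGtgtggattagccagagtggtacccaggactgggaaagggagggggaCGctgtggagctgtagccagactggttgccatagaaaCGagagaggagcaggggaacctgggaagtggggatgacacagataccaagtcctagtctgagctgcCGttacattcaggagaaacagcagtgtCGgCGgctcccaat
These 300 bases held 19 CpG dinucleotides at Kcnh2, 27 at Kcnk5, 4 at Kcnv2, 21 at Kcnj10 and 8 at Kcnj9. At the most upstream start site of all autosomal protein-coding genes, 59.5% of such windows held 8 or more, 34.7% held 19 or more and 18.2% held 27 or more. The unmarked Kcnk5 thus had the most CpG dinucleotides of the 5 sequences. The Kcnh2 sequence is from its second start site group, whose window had a CpG ratio of 0.286 and was in the low class described below, and not from the most upstream one with 0.731.

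Most potassium channel genes carried H3K4me3 at a promoter in ES cells. Of the 91 genes, 78 were marked (85.7%, 95% Wilson interval 77.1% to 91.5%), compared with 14520 of 20807 autosomal protein-coding genes (69.8%, 69.2% to 70.4%). Intervals of shares cover counting error only. When peaks below the median fold enrichment of the list were left out, 54.9% of channel genes and 36.7% of all genes stayed marked. When the summit itself had to lie in the window, the shares were closer, at 60.4% of channel genes and 54.1% of all genes. The peaks at the channel genes were smaller than those at other marked genes. Their median was 368 tags (order-statistic interval 276 to 400) and 2618 bp (2221 to 2886), against medians of 476 tags and 2964 bp over all marked genes. Of the 78, 57 had fewer tags than the median of all marked genes and 21 had as many or more. The lower quartile of all marked genes was 312 tags and the upper quartile 668, and 34 of the channel genes (43.6%) lay below the former and 5 (6.41%) above the latter. The fold enrichment at the summit was higher than in all marked genes, with medians of 7.00 and 6.34. Over all H3K4me3 peaks its median was 7.22 for lengths of 1000 to 2000 bp and 5.58 for 3000 to 4000 bp. The part of peak length in the higher fold enrichment, and in the shares after the fold filter, was not tested. Tags and peak length ran together across the 78 genes (Spearman's rho 0.91, across genes, which share the library and are not replicates).

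**Figure D1:**
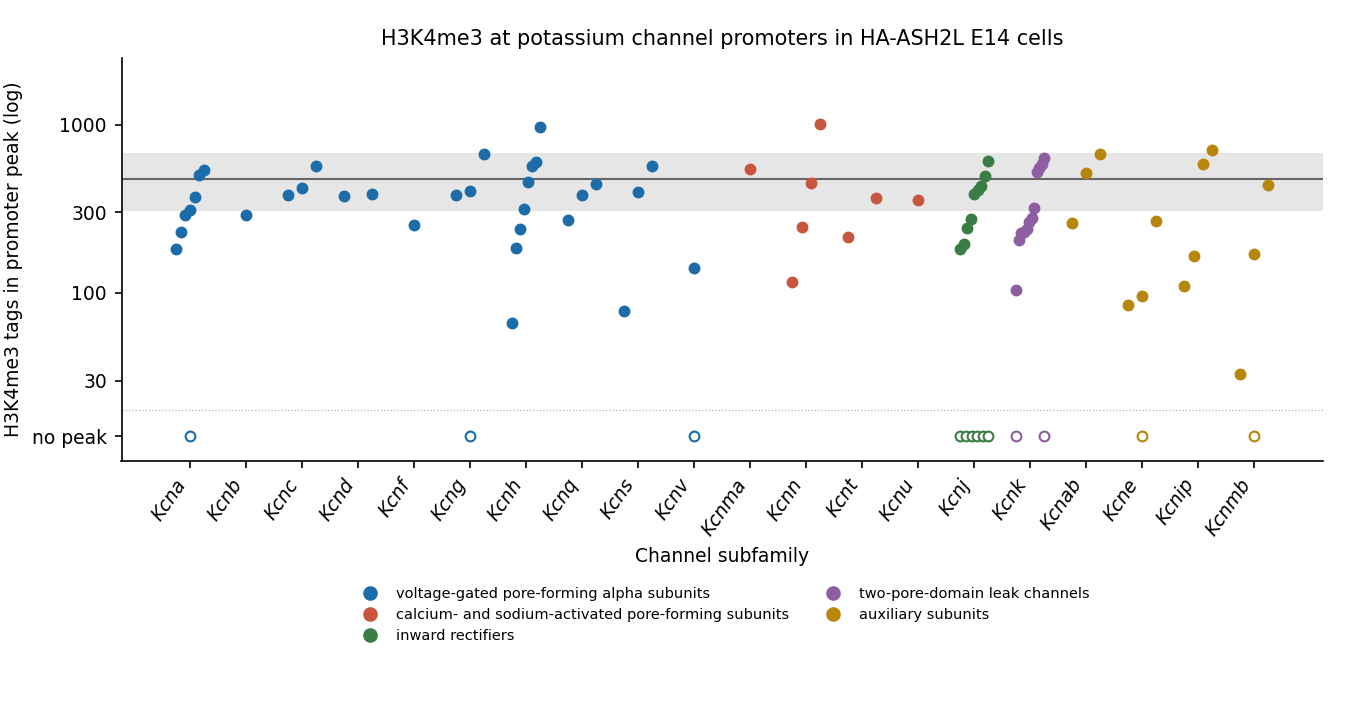
H3K4me3 tags in the promoter peak (log axis) of 87 potassium channel genes, by subfamily and coloured by role; open circles below the dotted line are genes without a peak, and the line and grey band give the median (476) and quartiles (312 to 668) of all marked genes. The Kcnj column holds 6 of the 13 unmarked genes, and Kcnn2 (1011 tags) lies highest of the 87 genes drawn.

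The voltage-gated alpha subunits, which form the pore and open on depolarization, were the largest role, and 36 of 39 were marked (92.3%, 79.7% to 97.3%) with a median of 382 tags. All 2 Kcnd, 1 Kcnf, 8 Kcnh and 3 Kcns genes were marked. The exceptions were Kcna10 in a subfamily of 8, Kcng4 in one of 4 and Kcnv2 in one of 2. In the Kcna subfamily of Shaker-type channels, the peaks had 181 tags at Kcna4, 231 at Kcna5, 290 at Kcna6, 309 at Kcna3, 370 at Kcna2, 498 at Kcna7 and 533 at Kcna1. Kcna1 and Kcna2, which encode the axonal channels, thus differed in tags by more than the counting error. The exact Poisson interval at Kcna1 was 489 to 580. The peak at Kcna1 was also longer, with 4127 against 2886 bp, and the tags per kb were close, at 129 and 128. Kcnb2, a delayed rectifier of neurons, had 290 tags.

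Of the fast Shaw-type channels of neurons that fire at high rates, Kcnc1 had 381 tags, Kcnc2 422 and Kcnc4 570. Kcnd2 and Kcnd3, which carry the transient A-type current, were close to each other with 385 and 376 tags. In the Kcnh subfamily, values ran from 66 tags at Kcnh6 through 185 at Kcnh7, 240 at Kcnh1, 313 at Kcnh4, 452 at Kcnh5, 567 at Kcnh2 and 596 at Kcnh8 to 961 at Kcnh3. Kcnh2 encodes hERG, the channel of the rapid delayed rectifier current of the heart, and Kcnh6 and Kcnh7 encode its closest relatives. Kcnq1, which encodes the cardiac slow delayed rectifier, had 271 tags, Kcnq5 383 and Kcnq3, which carries part of the neuronal M-current, 440.

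The Kcnf, Kcng, Kcns and Kcnv genes encode subunits that are silent alone and change the properties of Kcnb channels. Their peaks ranged widely. Kcng3 had 667 tags, Kcns3 566, Kcng2 400, Kcns2 397, Kcng1 382, Kcnf1 253, Kcnv1 141 and Kcns1 78. Both unmarked genes of this functional set, Kcng4 and Kcnv2, had a peak close by in the gene body, 1303 bp and 136 bp downstream of a start site with 196 and 98 tags.

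All 8 genes for calcium- and sodium-activated channels were marked (Wilson interval 67.6% to 100%), with a median of 362 tags. Kcnn2, a small-conductance channel opened by calcium, had 1011 tags over 4450 bp. Its relatives Kcnn3 and Kcnn1 had 448 and 246 tags, and Kcnn4, the intermediate-conductance channel of red cells and lymphocytes, had 116. Kcnma1, the large-conductance BK channel, had 546 tags. The sodium-activated channel genes had 368 tags at Kcnt2 and 214 at Kcnt1. Kcnu1, the sperm-specific relative of Kcnma1, had 357 tags, but the summit of this peak lay upstream, at −1935 bp from the nearest Kcnu1 start site, and the peak also overlapped the promoter of Ash2l, the neighbouring gene that encodes ASH2L itself.

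The inward rectifiers (Kcnj) had the lowest marked share of the 5 roles. Of 15 genes, 9 were marked (60.0%, 35.7% to 80.2%), an interval that contains the 69.8% of all genes. Those that were marked were not weaker than the other roles, with a median of 388 tags. The unmarked genes were Kcnj1, Kcnj9, Kcnj13, Kcnj14, Kcnj15 and Kcnj16. Among the G-protein-gated channels, which slow the heart and silence neurons, Kcnj3 had 491 tags, Kcnj5 243 and Kcnj6 181, and Kcnj9 had no peak. The pore subunits of the ATP-sensitive channels, which couple metabolism to excitability, were both marked, with 388 tags at Kcnj8 and 194 at Kcnj11. The strong inward rectifiers had 607 tags at Kcnj12, 430 at Kcnj2 and 406 at Kcnj4, while Kcnj14 was unmarked. Kcnj10, the channel of glia and kidney epithelium, had 276 tags, and its partner gene Kcnj16 was unmarked. Kcnj1, the secretory channel of the kidney, and Kcnj13, known from retinal pigment and choroid plexus epithelium, were unmarked as well.

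Among the two-pore-domain leak channels (Kcnk), which hold the resting potential, 12 of 14 were marked (85.7%, 60.1% to 96%) with a median of 270 tags. Kcnk12 and Kcnk13, a pair of close relatives, had 635 and 586 tags. Kcnk1 had 553 tags. Of the mechanosensitive channels, Kcnk4 had 521 tags, Kcnk10 319 and Kcnk2 229. Of the acid-sensitive channels, Kcnk9 had 277 and Kcnk3 227. Kcnk6 had 262 tags, Kcnk7 240, Kcnk15 206 and Kcnk18, known from sensory neurons, 103. The unmarked genes were Kcnk5 and Kcnk16, which both encode channels that open at alkaline pH and lie in one region of chromosome 14.

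Of the auxiliary subunits, 13 of 15 were marked (86.7%, 62.1% to 96.3%), and their median of 261 tags was the lowest of the roles. The cytoplasmic beta subunits of Shaker-type channels had 670 tags at Kcnab3 and 517 at Kcnab2, both in peaks that also overlap other genes, and 261 at Kcnab1. The calcium-binding partners of Kcnd channels split into Kcnip3 (706 tags) and Kcnip2 (585), and Kcnip4 (165) and Kcnip1 (109). The protein of Kcnip3 is also known as the transcriptional repressor DREAM. The single-span Kcne subunits had the smallest peaks of any subfamily with 3 or more marked genes, at a median of 95 tags, with 265 tags at Kcne3, 95 at Kcne1 and 85 at Kcne2. Kcne4 was unmarked. Of the beta subunits of the BK channel, the neuronal Kcnmb4 had 436 tags, Kcnmb2 169 and Kcnmb3 33, and Kcnmb1, the form of smooth muscle, was unmarked. Kcnmb3 had the smallest peak of all marked channel genes, with an exact Poisson interval of 22.7 to 46.3 tags and a score of 52.61, just past the calling cutoff of 50. The score is the peak caller's −log10 of the p-value multiplied by 10.

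The peaks were centred on start sites. Relative to the nearest start site, with negative values upstream, the median summit lay at −8.50 bp (quartiles −163 and 148 bp), and at −11 bp over all marked genes. In 71 of 78 genes (91%) the summit was within 1000 bp of a start site, and 75 peaks (96.2%) covered one. Over all marked genes, these shares were 94.3% and 98.1%. The 7 genes with a more distant summit were Kcnab3, Kcne2, Kcnu1, Kcnk9, Kcnk13, Kcng3 and Kcnh8, and the peaks at Kcnab3, Kcne2 and Kcnu1 covered no start site. Some peaks were one-sided relative to the start site nearest the summit. At Kcna1 the peak extended from −207 to 3919 bp, whereas at Kcnh3 it extended from −4102 to 2070 bp. The Kcna1 distances are from the most upstream start site, which has no coding transcript. The same peak covered the coding start sites 1.57 kb downstream, so that it was not one-sided around those.

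**Figure D2:**
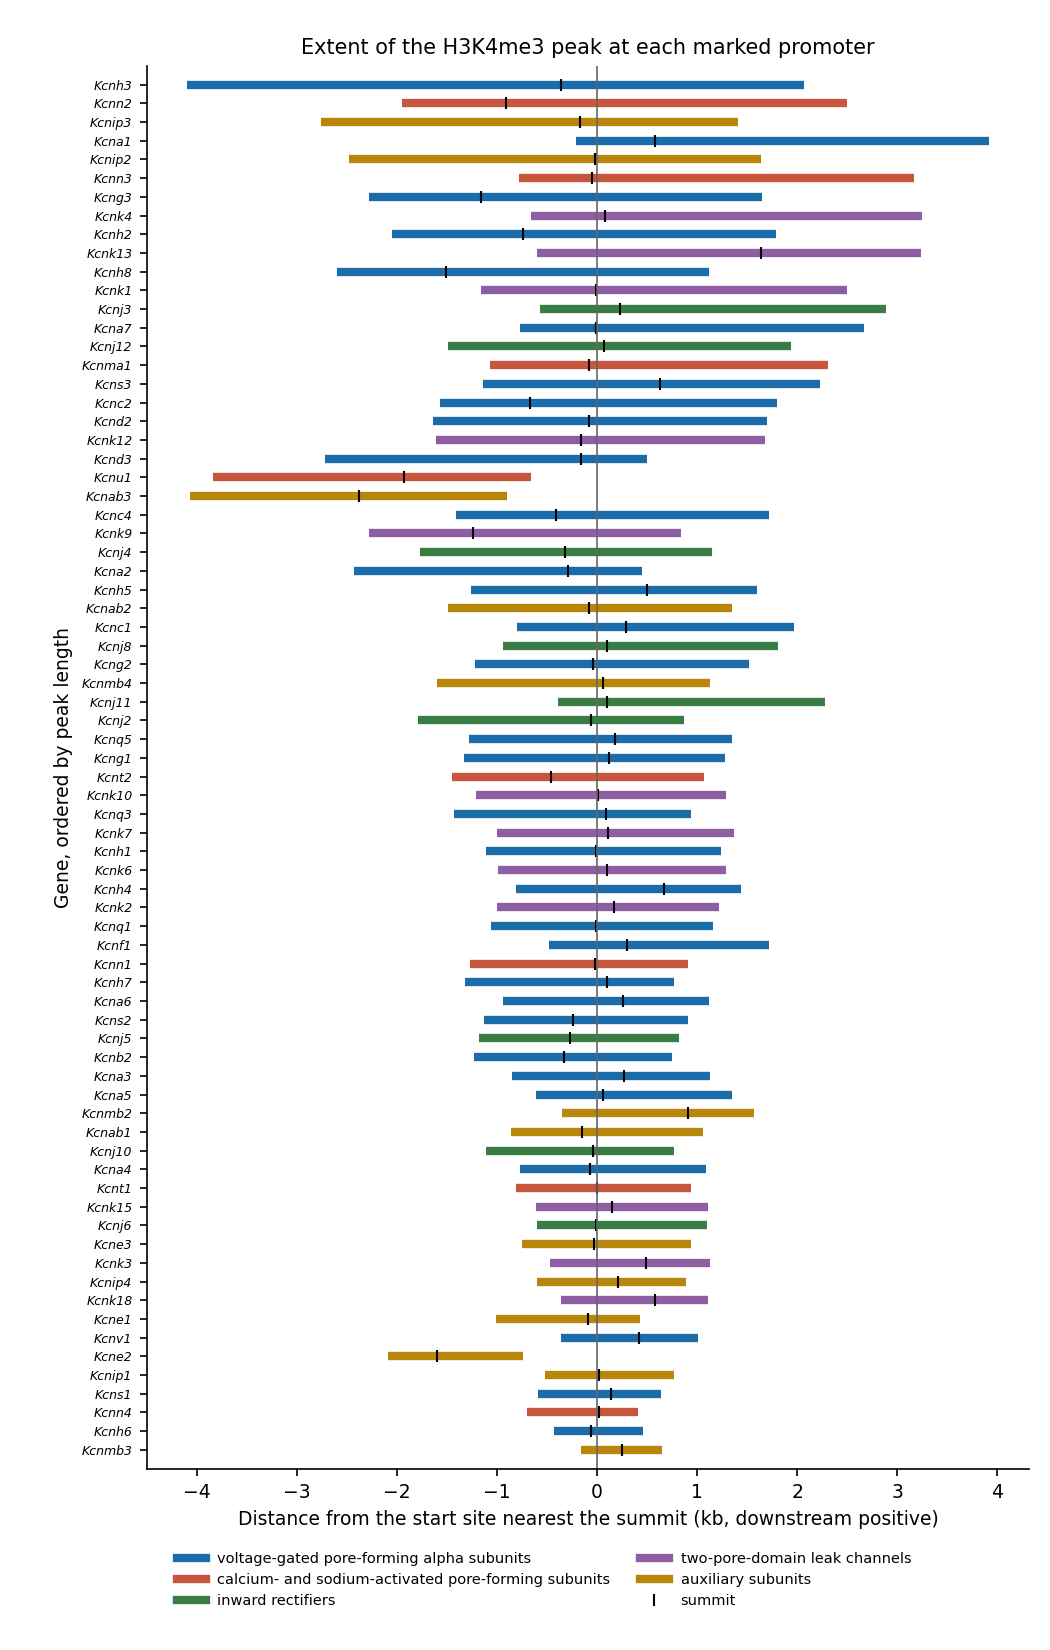
Extent of the H3K4me3 peak at 74 marked genes, in kb from the start site nearest the summit, ordered by length and coloured by role, with the summit as a black tick. In 71 of them the bar crosses the start site at 0, and the bars of Kcnab3, Kcne2 and Kcnu1 lie wholly upstream.

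Long peaks were rare among the channel genes. Of the 78, 2 had a peak of 5 kb or more (2.56%), among them Kcnh3 with 6173 bp, compared with 12.8% of all marked genes. The peak at Kcnn2 had 4450 bp. Over all H3K4me3 peaks, the median score was 552 for lengths of 3000 to 4000 bp, 340 for 5000 to 6000 bp, 123 for 7000 to 8000 bp and 67.0 for 8000 bp or more, although the tags per kb were level at 145 to 150. The score of Kcnh3 was 241.94. The longest promoter peak of any gene had 8609 bp, and whether longer domains missed the cutoff of 50, at unmarked channel genes too, was not tested. The relation of length and score was examined after the values had been seen.

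**Figure D3:**
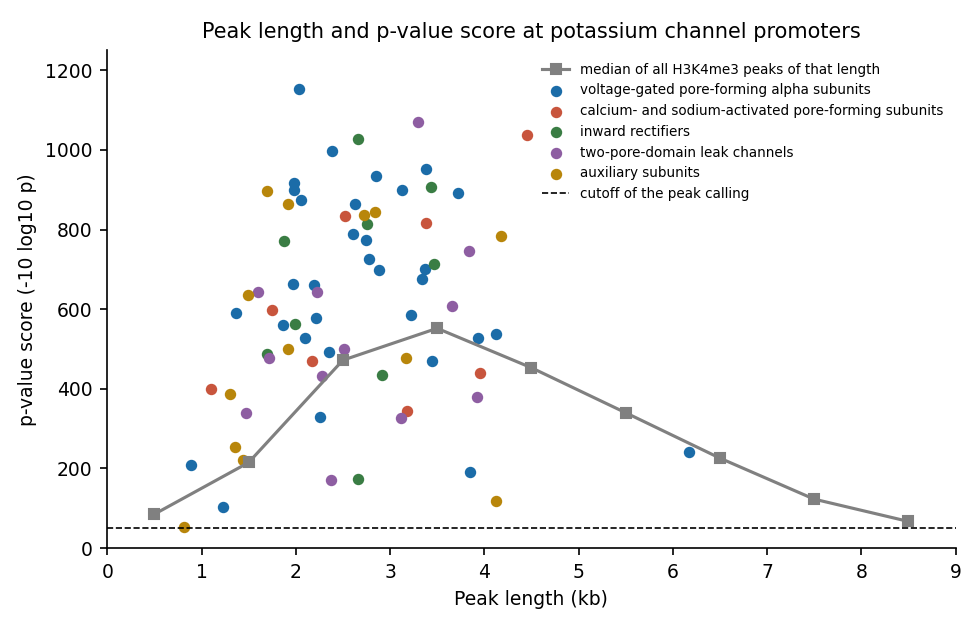
p-value score against peak length (kb) for 74 marked channel genes, coloured by role, with the median of all H3K4me3 peaks in each 1-kb class of length (grey squares) and the calling cutoff (dashed line at 50). The grey line passes its highest median of 552 between 3 and 4 kb, and Kcnh3, the longest peak drawn, lies at 241.94.

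Many channel genes have several promoters. Start sites more than 1100 bp apart were counted as separate groups. By this count, 55 of 91 channel genes (60.4%) had 2 or more groups, close to the 56.7% of all genes. Of the 55, 12 were marked at every group, 35 at some and 8 at none. Partial marking, at 63.6% of the 55 (50.4% to 75.1%), was near the 67.7% of all genes with 2 or more groups. Marking at every group was more frequent, at 21.8% against 11.7%, and marking at none was less frequent, at 14.5% against 20.6%, as a description without a test. The 36 genes with a single group included 31 marked ones, and the matching share of all genes with a single group was not counted. The 55 genes had 160 groups, of which 79 were marked (49.4%, against 38.7% of the groups of all such genes). Of the 79, 65 contained a start site of a protein-coding transcript, compared with 40 of the 81 unmarked groups, so that unmarked groups more often held only transcripts without a coding sequence. In 28 of the 35 partly marked genes the most upstream group was marked (Wilson interval 64.1% to 90.0%), and the 88.4% of all partly marked genes lay inside the interval.

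In several genes with widely spread start sites, few groups were marked. The start sites of Kcnip4 were spread over 1033 kb in 6 groups, of which the most upstream (165 tags) and the fifth, 925 kb further on (133 tags), were marked. Kcnma1 had 7 groups, and only the second, 9.63 kb from the first, was marked; it held 7 of the start sites, all of protein-coding transcripts. Of the 5 groups of Kcnab1, the most upstream alone was marked. Kcnk2 was marked at the third of 5 groups, 58.1 kb from the first, and Kcnip1 at the second of 2, 150 kb from the first. Kcnt1 was marked at the first and second of 7 groups with nearly equal peaks of 214 and 213 tags. Kcnn2 was marked at the first and second of 4, with 196 and 1011 tags. In contrast, Kcnh2 was marked at all 4 groups, with separate peaks of 567, 177, 270 and 474 tags from upstream to downstream. Kcnab2 was marked at 5 of 7, and its peaks had 517, 156, 64, 55 and 41 tags in the same order. At Kcnip2, the most upstream group with 5 coding start sites had no peak, and the next, 3.77 kb downstream, had the peak of 585 tags. The first group was also unmarked and the next one marked at Kcne2, Kcne3 and Kcnn1, where the next group was 3.23, 2.19 and 6.25 kb downstream.

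**Figure D4:**
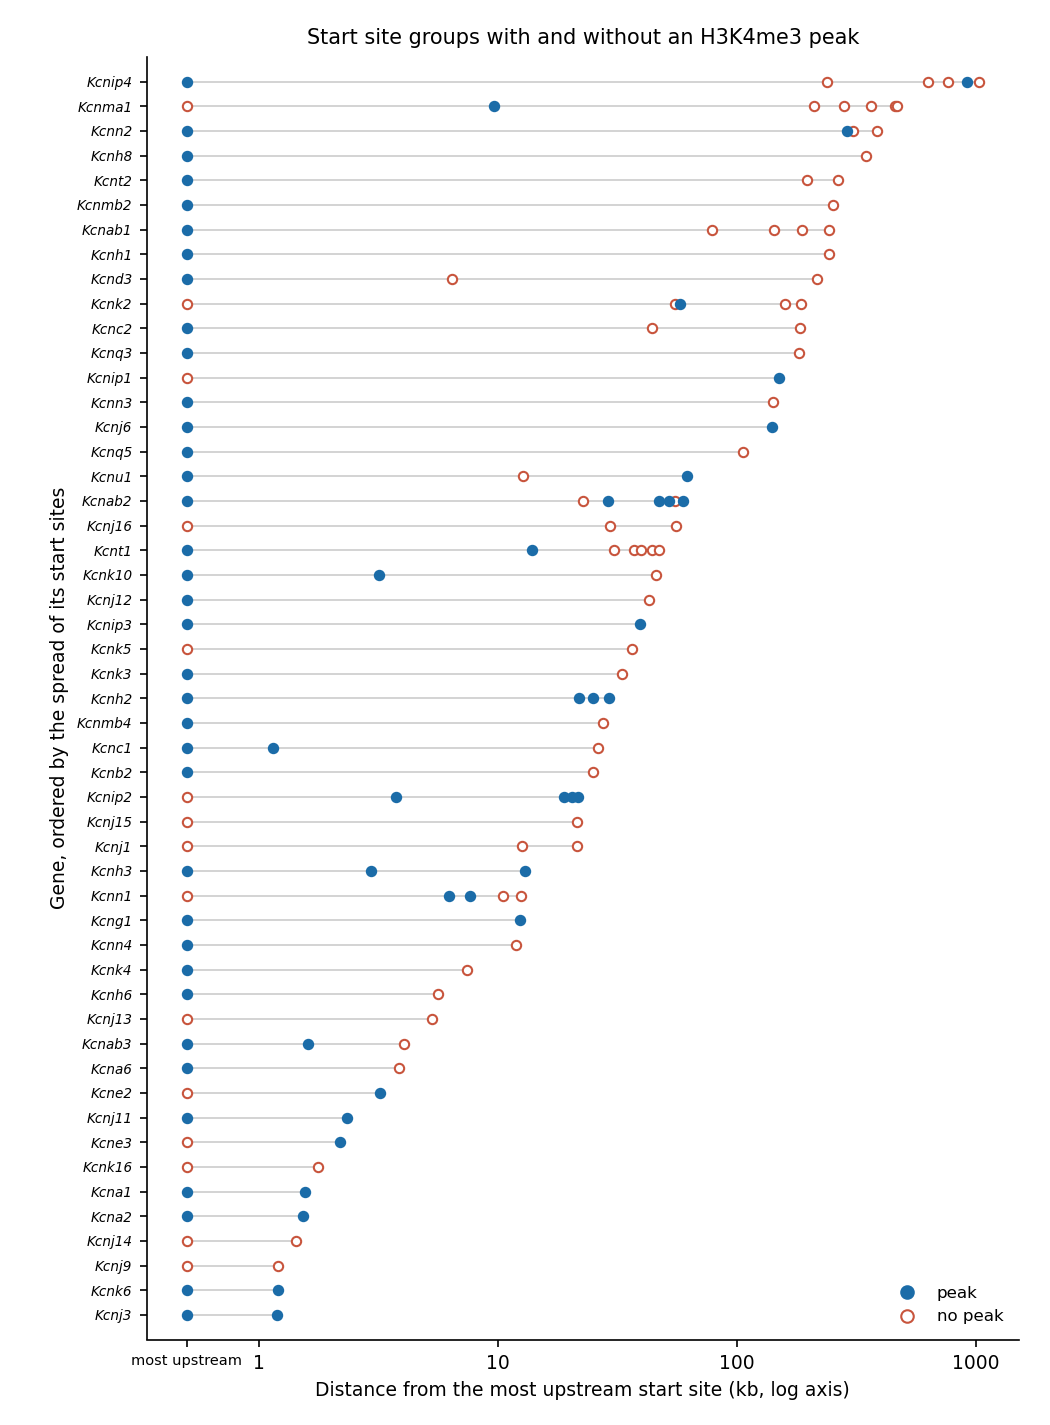
Start site groups of 51 channel genes with 2 or more, by distance from the gene's most upstream start site (kb, log axis; the most upstream group is drawn at the left edge). Filled circles (71) have an H3K4me3 peak and open circles (76) have none; in most genes the filled circles stand at the left.

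Marked and unmarked channel promoters differed in CpG content. The ratio of observed to expected CpG over the promoter window, taken at the start site where it was highest, had a median of 0.587 in the 78 marked genes (quartiles 0.449 and 0.721) and of 0.175 in the 13 unmarked genes (0.145 and 0.268). The corresponding medians of all genes were 0.643 and 0.175. Promoters were also put in 3 classes by 500-bp intervals within the window. The class was high where an interval had a ratio over 0.75 and a GC content over 55%, and low where none reached 0.48. In the high class, 38 of 39 channel genes were marked (97.4%, 86.8% to 99.5%), near the 95.7% of all genes in that class. With peaks at or above the median fold enrichment only, 53.8% of these channel genes were marked. The matching share of all genes was not counted. In the intermediate class 28 of 28 were marked (87.9% to 100%), against 87.2% of all genes. In the low class 12 of 24 were marked, a share with an interval of 31.4% to 68.6%, above the 23.5% of all genes in that class. Of the channel genes 42.9% were in the high, 30.8% in the intermediate and 26.4% in the low class, against 41.3%, 25.9% and 32.8% of all genes.

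Kcnk5 was the only unmarked gene in the high class, with a ratio of 0.546. The nearest peak, with 42 tags, lay 6839 bp from the other start site of the gene, 36.5 kb downstream of the CpG-rich one. The class of a gene need not be that of its marked start site. Kcnn1 counts as marked in the high class, but its high-class groups, with ratios of 0.591 and 0.537, were unmarked, and the groups with the peak were not in that class. The other 12 unmarked genes were all in the low class. The marked genes of the low class were Kcnab1, Kcne1, Kcne2, Kcnmb2, Kcnmb3, Kcnn4, Kcnu1, Kcnj3, Kcnk7, Kcna5, Kcnf1 and Kcnv1. They included Kcnf1 with a ratio of 0.0864, the lowest of all 91 genes, and Kcna5 with 0.162, which had peaks of 253 and 231 tags with the summits 300 and 59 bp downstream of the start site. The smaller size of channel peaks was not the same in each class. In the high class, the median of the channel genes was 384 tags against 569 for all marked genes, in the intermediate class 375 against 385, and in the low class 200 against 199. Across the 78 marked genes, the CpG ratio ran with tags (Spearman's rho 0.46) and against fold enrichment (−0.36), as a description of genes that share one library.

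**Figure D5:**
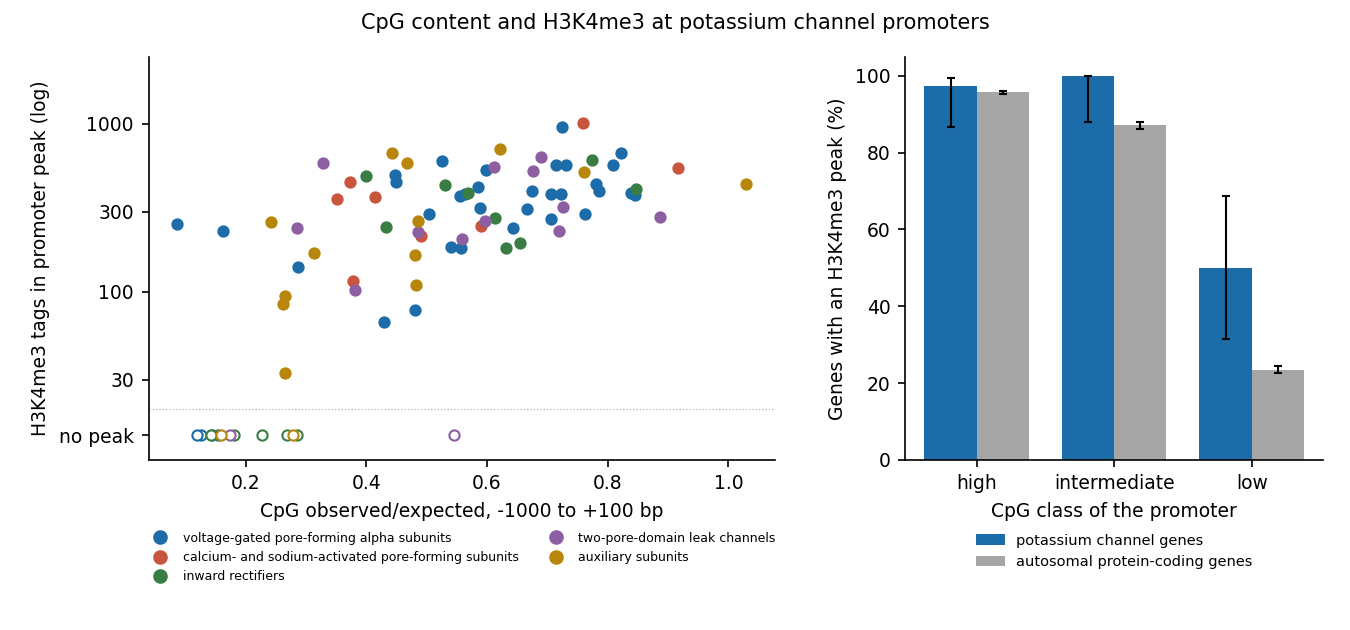
Left, H3K4me3 tags (log axis) against the CpG ratio of the promoter for 87 channel genes, coloured by role, with unmarked genes as open circles at the bottom; right, share of marked genes (%) by CpG class for channel genes and all autosomal protein-coding genes, with 95% Wilson intervals. All open circles but Kcnk5 (0.546) lie at ratios of 0.285 or less.

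Some neighbouring channel genes were in different states. Of channel genes that follow each other along a chromosome, 10 pairs lay within 200 kb, of which 4 were both marked, 1 was unmarked at both and 5 were mixed. In the 5 mixed pairs the marked gene had the higher CpG ratio each time. This is not separate from the CpG difference given above, since all unmarked genes but Kcnk5 were in the low class. Neighbouring pairs of all genes were not counted. The start sites of Kcnj9 and Kcnj10 on chromosome 1 were 11892 bp apart, with ratios of 0.228 and 0.613, and Kcnj9 had a peak of 266 tags in its body, 987 bp downstream of a start site. Kcnj16 (0.285) and the marked Kcnj2 (0.530) on chromosome 11 were 42304 bp apart. Kcnj1 (0.268) lay 28143 bp from the marked Kcnj5 (0.432). Kcna10 (0.127) lay 80374 bp from the marked Kcna2 (0.555), in a row with Kcna3 on chromosome 3. Kcnmb1 (0.160) lies within the span of the marked Kcnip1 (0.482). A second row of Shaker-type genes on chromosome 6, Kcna5, Kcna1 and Kcna6, was marked throughout. Kcne1 and Kcne2, 63258 bp apart on chromosome 16, were both marked weakly, with 95 and 85 tags. Kcnk5 and Kcnk16, with start sites 85607 bp apart, were the pair without a peak.

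Few of the peaks were shared with other protein-coding genes. Only 3 of 78 (3.85%) also overlapped the promoter of another gene, against 20.7% over all marked genes. These were Kcnab2 with Nphp4, Kcnab3 with Cntrob and Trappc1, and Kcnu1 with Ash2l. Each of the 3 genes also had an unshared peak at a promoter, with 156 tags at Kcnab2, 381 at Kcnab3 and 92 at Kcnu1, so that the number of marked genes does not rest on the shared ones.

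The 13 unmarked genes differed in how far they were from H3K4me3. The nearest peak lay between 136 bp (Kcnv2) and 91682 bp (Kcne4) from a start site, and the median was 9602 bp (24183 bp over all unmarked genes). It was within 5000 bp at Kcnv2, Kcnj9, Kcng4, Kcnj1 (1959 bp) and Kcnj14 (2739 bp). Kcnj13 and Kcnj15 were 59986 and 61724 bp away. In 5 of the 13 (Kcnv2, Kcng4, Kcnj9, Kcnj14 and Kcnk5) a peak lay in the gene body.

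ASH2L peaks overlapped promoters of 5 of 91 channel genes (5.49%, 2.37% to 12.2%). The share of all autosomal protein-coding genes was 8.07% and lay inside this interval, so that the shares were not apart by more than counting error. With a score of 100 or more required, none of the 91 and 0.961% of all genes had an ASH2L peak. The ASH2L tags were 51 at Kcnh2 (exact Poisson interval 38 to 67.1), 45 at Kcng3 (32.8 to 60.2), 42 at Kcnt1 (30.3 to 56.8), 41 at Kcns2 (29.4 to 55.6) and 24 at Kcnk10 (15.4 to 35.7). The interval of Kcnk10 did not overlap that of Kcnh2. The peak at Kcnh2 was also longer, with 1164 against 596 bp, and the tags per kb were close, at 43.8 and 40.3. Of the 5 peaks, that of Kcnh2 had the lowest fold enrichment (4.66) and the lowest score (52.49, just past the calling cutoff of 50). The set comprises 3 voltage-gated subunits, a sodium-activated channel and a leak channel, and no inward rectifier (0 of 15, Wilson upper limit 20.4%) or auxiliary subunit (0 of 15) was among them. Each of the 5 ASH2L peaks lay wholly inside an H3K4me3 peak. This does not set the channel genes apart, since almost all autosomal protein-coding genes with an ASH2L promoter peak also had H3K4me3 at a promoter. The share of ASH2L peaks wholly inside an H3K4me3 peak was not counted over all genes. At Kcnh2, Kcnt1 and Kcnk10 the ASH2L peak was at the second start site group, and Kcng3 and Kcns2 have a single group. The ASH2L peak of Kcnh2, chr5:24329151-24330314, covers the Kcnh2 sequence printed above and sits in the smallest of the 4 H3K4me3 peaks of the gene, with 177 tags, not in the largest with 567. Among H3K4me3-marked genes, 6.41% of channel genes and 11.3% of all genes had ASH2L, and all genes with both marks had a median of 584 H3K4me3 tags.

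A further 6 ASH2L peaks lay in the bodies of 5 channel genes, 2 in Kcnh1 and 1 each in Kcnab1, Kcnh4, Kcnq3 and Kcnj6, with 19 to 38 tags. Only that of Kcnh4, 935 bp downstream of the start site with 38 tags, lay in an H3K4me3 peak, and its fold enrichment of 3.22 was higher than that of only 0.528% of the list. The median distance from a channel gene to the nearest ASH2L peak was 288266 bp, compared with 187579 bp over all genes.

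Inside the genes, outside their own promoter windows, 52 channel genes (57.1%) contained an H3K4me3 peak, compared with 41.0% of all genes. Such peaks can still lie close to a start site, as at Kcnv2 (136 bp). The channel genes are longer, with a median of 32.3 kb against 17.6 kb. Per length, their bodies held fewer peaks, 146 over 10.4 Mb or 1.41 per 100 kb, against 2.27 per 100 kb in all genes. The most were in Kcnj6 with 11, Kcnq1 with 10 and Kcnn3 with 8. Body peaks were small, with a median of 79.0 tags against the 368 of the promoter peaks. The body peaks of all genes were small too, with a median of 88.0 tags.

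Other ion channel families varied around the same level. Of the voltage-gated calcium channel genes, 24 of 25 were marked (96%, 80.5% to 99.3%) with a median of 378 tags, close to the 368 of the potassium channel genes. Of the voltage-gated sodium channel genes, 9 of 14 were marked (64.3%, 38.8% to 83.7%) with a median of 272 tags. Of the cyclic-nucleotide-modulated HCN and CNG channels, 6 of 9 were marked, including all 4 Hcn genes. Of 10 partners of potassium channels that carry other names, 8 were marked. These included Abcc8 and Abcc9, the sulfonylurea receptors of the ATP-sensitive channels, with 146 and 78 tags, and Dpp6 and Dpp10, partners of Kcnd channels, with 324 and 208. The intervals of these lists overlap that of the potassium channel genes.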

How the data were processed

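CUT&RUN peak lists were used for HA-ASH2L and H3K4me3 in HA-Ash2L E14 cells. According to the methods and labels, reads were mapped by the authors to mm10 with Bowtie2, duplicates were merged, and MACS was run on the merged libraries. Per the file headers this was MACS 1.4.3 without a control library, at a p-value cutoff of 1e-05. The tag sizes in the headers, 142 bp for H3K4me3 and 151 bp for ASH2L, exceed the limit on fragment size in the methods, and which fragments were counted is not settled. The authors' tag counts are whole tags per peak, not normalized. Fold enrichment, as deposited, is a ratio, in which summit tags are divided by a background that the peak caller modelled. The deposited score is −log10 p times 10. H3K4me3 had 39669806 tags and ASH2L 26545897 before redundant tags were removed.

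Peak lengths, tags and overlaps were taken at GENCODE vM21 start sites of GRCm38.p6. Shares have Wilson intervals and tags exact Poisson intervals at 95%, for counting error only. Neither tells how far duplicates vary. All genes were accounted for as marked or not. Values were given for genes with ASH2L, those with the 10 most and 5 fewest tags, the 3 longest peaks, partly marked genes, the unmarked genes of highest and lowest CpG ratio and the leading gene of each subfamily, and further values were added after they had been seen. Some genes stay in counts and medians but are not reported here singly. The genes, lists and the rule were chosen with earlier results of these data known. The overlap code was tested on simulated peaks. The tools were samtools 1.23.1, pysam 0.24.0, scipy 1.17.1, matplotlib 3.10.9, pandas 2.3.3, numpy 2.4.6 and Python 3.11.15.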

Additional observations from a re-analysis of the deposited data

How the results depend on the processing

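The peaks had been called on merged duplicates. No paired analysis was possible because the lists hold no values of single samples, and leaving out a replicate could not be run for the same reason. Of the alternatives for the potassium channel genes, 35 left a result within its interval and 11 moved it. The share of marked genes was 60.4% when the peak summit had to lie in the window and 54.9% with peaks at or above the median fold enrichment, compared with 54.1% and 36.7% of all genes, so that the summit rule brought both shares closer together. With the latter peaks, the median length was 2046 bp, the median tags 262 and the marked share of the high CpG class 53.8%. These values were not counted over all genes. The share of genes with ASH2L was 2.20% with the most upstream start site only (6.44% of all genes) and 2.20% with peaks at or above the median fold enrichment (3.93% of all genes). It was 0% with scores of 100 or more, where 0.961% of all genes had a peak. The CpG ratio of marked channel genes was 0.695 over 500 bp on both sides and 0.409 at the most upstream start site. The marked share of their low class was 70.7% when that start site set the class. These values were likewise not counted over all genes. The cause was not tested. No ASH2L peak had fewer than 17 tags, and binding below the calling cutoff is not in the list.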
